A study of Sus scrofa with 6 samples.

Results

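The 10 S-phase genes PCNA, MCM2, MCM3, MCM4, MCM5, TOP2A, RRM1, RRM2, GMNN and CDK2 were followed in pig embryos made by nuclear transfer and in the cells that supplied the nuclei. They were chosen by name, as every probe set that the platform annotation gives to 1 of these symbols alone, out of 6765 genes with such a probe set. The 10 genes had 17 probe sets, of which 14 were bright enough on average to be tested, and each gene kept at least its brightest one.

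Each of 6 samples was hybridised to a porcine Affymetrix array of its own. The 5 embryo samples each pooled between 23 and 26 embryos taken 28 h after a nucleus of a cultured cell was placed in a slaughterhouse oocyte, when many had just reached the two-cell stage. Embryos were injected with an antibody against DJ-1, a redox-sensitive protein (2 arrays), with IgG as the control (2 arrays), or not injected (1 array). The donor cells, fibroblasts grown from an adult Meishan pig, gave 1 array, so the donor group is 1 animal. All 4 groups had an array in trial 1, and trial 2 added a further anti-DJ1 and a further IgG array from other embryos. All embryo groups share the nuclear transfer and culture in PZM-3 medium, and embryos grown from fertilised oocytes were not analysed here.

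DNA replication starts at origins that were licensed beforehand, when the origin recognition complex loads the ring-shaped MCM helicase, of which MCM2, MCM3, MCM4 and MCM5 are subunits. Geminin (GMNN) binds the loading factor CDT1 and keeps origins from being licensed again in the same cycle, and the kinase CDK2, with cyclin E or A, fires them. PCNA is the sliding clamp that holds DNA polymerases on the template, topoisomerase II alpha (TOP2A) untangles the copied strands, and ribonucleotide reductase, made of RRM1 and RRM2, supplies the deoxynucleotides. Oocytes stockpile such transcripts, and the cleavage divisions of a mammalian embryo run largely on this maternal store until its own genome is activated.

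The labelled cell types were checked against marker genes. The summed signal of 9 fibroblast genes was 93925 on the donor array and between 2754 and 3504 on the embryo arrays. VIM, FN1, SPARC and THY1 led this sum on the donor array. COL1A2 (459 in donor cells, 210 to 355 in embryos) and COL3A1 (584 and 160 to 406) stood less far apart. LUM, DCN and POSTN lay within the background on the donor array. DCN went the other way, at 5.58 in donor cells and 54.7 to 111 in embryos. For 8 oocyte and early embryo genes the sum lay between 69637 and 112343 on the embryo arrays and was 220 on the donor array. Of 8 cumulus and granulosa genes, 6 or 7 lay within the background on each array. Background here means a signal under the array's highest Tag control, a probe set for a sequence that pig RNA should lack. That ceiling ran from 21.4 to 47.0. The deposited MAS5 signals share a trimmed mean of 500 (499.8 to 499.9), and 50 ng of total RNA was labelled per sample. A signal is therefore a level relative to the rest of the RNA on the array, and fewer cells with a transcript and less of it per cell cannot be told apart.

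**Figure D1:**
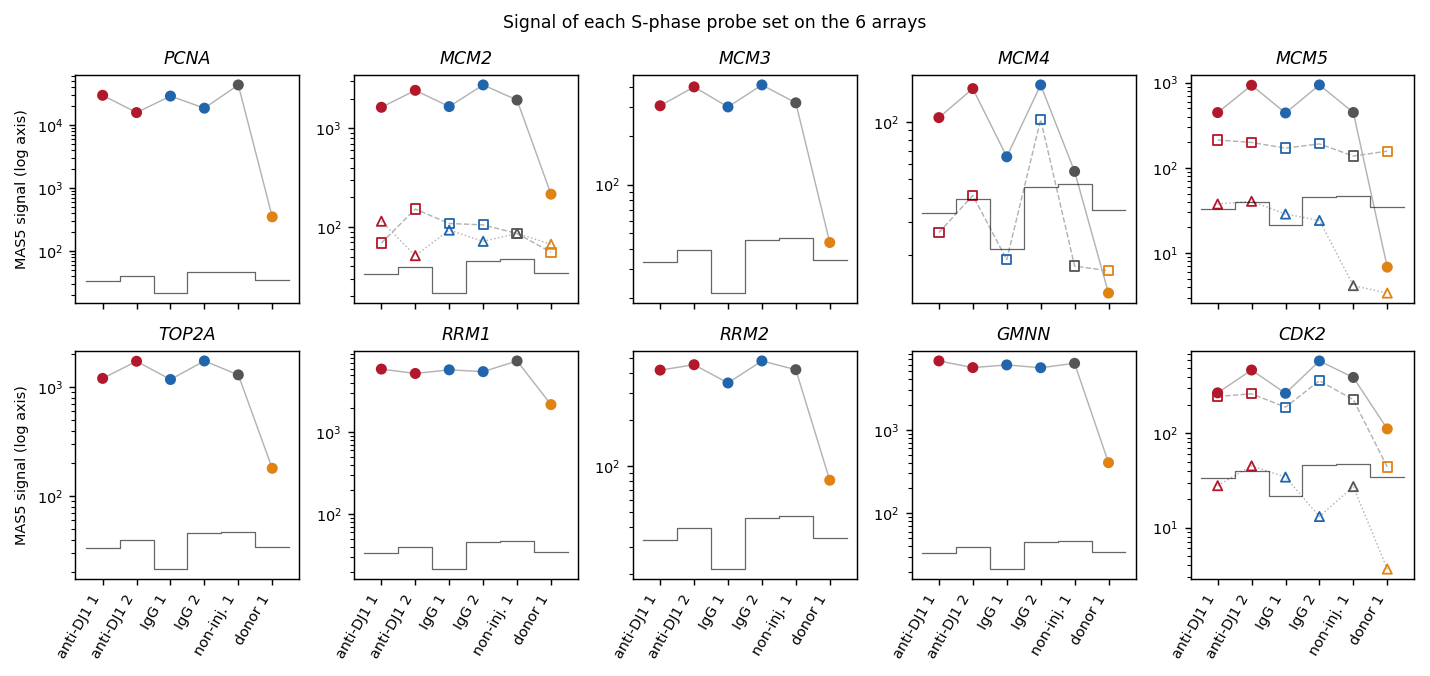
MAS5 signal (log axis) of the 17 probe sets of the 10 genes on the 6 arrays, with filled circles for each gene's brightest probe set, open squares and triangles for its others, and colours for the groups. Grey lines only join values of 1 probe set, the black steps mark each array's highest Tag control, and the brightest probe set of every gene is lowest on the donor array.

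Donor cells were first set against the embryos, which asks how the S-phase transcripts of the embryo differ from those of the cell that gave its nucleus. The brightest probe set of all 10 genes was lower on the donor array than on each of the 5 embryo arrays. The share of all tested probe sets separated in this way was not counted, so this count alone does not set the 10 genes apart. Brightness was the mean over all arrays, 5 of them of embryos, so this choice favours probe sets that are high in embryos. On the donor array itself, other probe sets of MCM5 (157 against 6.84) and MCM4 (16.6 against 12.7) were brighter. In the test (limma across all probe sets, with group and trial as terms), 11 of the 14 tested probe sets were lower in donor cells and 0 were higher. In the same comparison 72.9% of all 14399 tested probe sets were called, 36.4% lower and 36.5% higher (50.0% of the calls were higher, against 40.3% under quantile normalization and 36.8% under a common 75th percentile). With the brightest probe set of each, the median log2 change of the 10 genes was -2.72, against 0.02 over all tested probe sets. Donor cells were a single array, and the test assumes that it varies like the replicated ones. Its ratio of 3′ to 5′ signal for the EF1A transcript, a sign of how far labelling ran, was 4.23, below the 8.20 to 30.0 of the embryo arrays, and the part of this in the differences was not tested.

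PCNA, the sliding clamp, had a signal of 349 in donor cells, against 43696 in non-injected embryos, 29895 and 29066 in the anti-DJ1 and IgG embryos of trial 1, and 15876 and 18666 in those of trial 2. Every embryo array thus stood at 45.5 to 125 times the donor array. The fitted log2 change was -6.57 ± 0.12 (SE), or 95.1-fold (limma, adjusted p = 3.96e-13). On each embryo array only 17 to 20 of 23999 probe sets were brighter than PCNA, and on the donor array 7109 were.

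Among the helicase subunits, MCM5 (Ssc.16649.1.S1_a_at) had a donor signal of 6.84, under the Tag ceiling of 34.3. In embryos it was 447 without injection, 446 and 441 in the anti-DJ1 and IgG embryos of trial 1, and 932 and 941 in those of trial 2. The embryo mean was at least 17.5-fold higher than that ceiling (adjusted p in limma 5.92e-10). MCM4 (Ssc.4612.2.S1_at), at 12.7 in donor cells and 54.9 to 156 in embryos, was at least 2.84-fold higher in embryos (adjusted p in limma 0.000958). Both bounds are means over the 5 embryo arrays without a term for the trial.

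MCM2 (Ssc.1408.2.S1_at) had a signal of 216 in donor cells. In embryos it was 1940 without injection, 1638 and 1666 in the anti-DJ1 and IgG embryos of trial 1, and 2434 and 2761 in those of trial 2. Its log2 change was -2.99 ± 0.15 (limma, adjusted p = 3.23e-09). MCM3 stood at 44.0 in donor cells and, in the same order, at 320, 307, 302, 401 and 413 in embryos. Its change was -2.69 ± 0.24 on the log2 scale (adjusted p in limma 6.09e-07). For both, the lowest embryo array was over 6 times the donor array (7.60 and 6.87).

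Other probe sets of the same genes did not show these differences. A second MCM5 probe set (Ssc.11264.1.A1_at) had 157 in donor cells, inside the embryo range of 138 to 213, with a log2 change of -0.12 (95% confidence interval -0.73 to 0.49; limma, adjusted p = 0.717). For MCM2, Ssc.21350.1.S1_at changed by -0.60 and Ssc.1408.1.A1_at by -0.51 (limma, adjusted p = 0.23 and 0.313). Under quantile normalization and under a common 75th percentile all 3 were called lower in donor cells, the adjusted p in limma spanning 0.014 to 0.0434. The 3 untested probe sets, of MCM4, MCM5 and CDK2, lay within the background on at least 3 of the 6 arrays each. Which probe set reads each transcript more truly was not tested, and no probe sequence was used here.

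Geminin, the licensing inhibitor, was at 403 in donor cells. It lay between 5531 and 6669 on all 5 embryo arrays (mean 5994 ± 483, SD, n = 5), a highest signal only 1.21 times the lowest. Its log2 change in donor cells was -3.95 ± 0.13, or 15.4-fold (limma, adjusted p = 5.96e-11). TOP2A was at 180 in donor cells. In embryos its signal was 1300 without injection, 1206 and 1179 in trial 1 and 1733 and 1745 in trial 2, and the log2 change was -2.74 ± 0.16 (limma, adjusted p = 1.22e-08).

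For nucleotide supply, the large reductase subunit RRM1 was at 2178 in donor cells and at 5223 to 7431 in embryos. On the log2 scale it changed by -1.54 ± 0.12 (adjusted p in limma 2.09e-07), which with CDK2 was the smallest difference among the 10 genes. Its partner RRM2 was at 80.8 in donor cells and at 346 to 481 in embryos, a difference of -2.22 ± 0.23 on the log2 scale (adjusted p in limma 2.13e-06). The kinase CDK2 (Ssc.27616.1.S1_at) was at 112 in donor cells and 266 to 588 in embryos, by -1.41 ± 0.23 (limma, adjusted p = 0.000129), and its second tested probe set moved by -2.21. As given above, no embryo array overlapped the donor array for any of these genes' brightest probe sets. The share of such cases over all tested probe sets was not counted. All 10 genes were also called lower under both other scalings of the arrays, which moved the median of all tested probe sets from 0.02 to -0.41 (quantile) and -0.59 (common 75th percentile).

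The wider replication machinery was read from 8 gene lists, in which 51 further genes were tested. Of these, 30 were lower and 12 higher in donor cells (median log2 change -1.15). Over all tested probe sets 36.4% were lower and 36.5% higher, and the small counts of each list are to be read beside these shares. Each list gene is read from its brightest probe set, a choice that favours embryos, while these shares count every tested probe set. Among origin licensing genes, 4 of 5 were lower, among them the origin recognition subunits ORC6 (-4.34) and ORC1 (-2.86) and the MCM-binding protein MCMBP (-2.09), while ORC4 was higher (1.36) but did not pass under the other scalings. All 5 helicase activation genes were lower, led by the GINS subunit GINS3 (-3.32), the helicase cofactor CDC45 (-2.86), GINS4 (-2.76) and cyclin A2 (CCNA2, -2.14). Here too a second probe set disagreed: the dimmer one of CDC45 changed by -0.14. CCNA2 stood at 34.6 on the donor array, just above its Tag ceiling of 34.3. Against the non-injected array alone, at 73.1, its log2 change was -0.99.

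Polymerase genes split 3 against 3 of 8, near the shares over all tested probe sets (36.4% lower, 36.5% higher). The epsilon subunit POLE2, the delta subunit POLD3 and the primase subunit PRIM2 (-2.76) were lower, and POLD4 (3.93), POLE3 (1.10) and POLE4 (0.78) higher. POLE2 and POLD3 lay within the background on the donor array, at 19.8 and 26.5, so that embryos were at least 87.9-fold and 48.0-fold higher, with bounds set as for MCM5 (adjusted p in limma 1.66e-12 and 4.09e-11). POLD4 lay within the background on 2 of the 5 embryo arrays. POLE3 and POLE4 did not pass when any 1 injected array was left out (log2 changes of 0.84 to 1.05 and 0.42 to 0.70), nor did POLE4 under the common 75th percentile (0.15). The median of the 8 polymerase genes was 0.12, and -0.30 or -0.50 under the other scalings. In the clamp loader and lagging strand list 7 of 10 were lower, with the single-strand binding subunits RPA2 and RPA3 (-1.80 each), the flap nuclease FEN1 (-1.69) and the clamp loader RFC3 (-1.20), and the ribonuclease subunit RNASEH2B was higher (2.37). Nucleotide supply divided, 6 of 14 lower and 5 higher, which is also near the shares over all tested probe sets. RRM2B, the alternative small reductase subunit, stood at 184 in donor cells and 11964 to 18887 in embryos (-6.51), and the folate enzyme SHMT1 (-2.77), the thymidylate synthase TYMS (-2.06) and the deaminase DCTD (-1.85) were lower too. The diphosphate kinases NME1 (3.56) and NME2 (3.29), the purine enzyme GART (3.27) and IMPDH2 (1.07) were higher, NME1 lying within the background on 1 of the 5 embryo arrays. The median of this list was 0.34, and -0.17 or -0.29 under the other scalings.

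In the chromatin assembly list 4 of 5 genes were lower in donor cells: the histone chaperones ASF1B, CHAF1A and SUPT16H, and DNMT1, which copies DNA methylation (-4.89). The first 3 lay within the background on the donor array, at 3.65, 7.11 and 13.6, and embryos were at least 50.3-fold, 4.73-fold and 2.98-fold higher (adjusted p in limma 4.01e-12, 1.57e-06 and 0.000134). The 1 other topoisomerase tested, TOP2B, was lower as well (-1.38). Of 3 S-phase regulators tested, the cell cycle inhibitors CDKN1A (2.61) and CDKN1B (3.48) were higher in donor cells, CDKN1B lying within the background on 1 of the 5 embryo arrays, and 0 were lower.

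**Figure D2:**
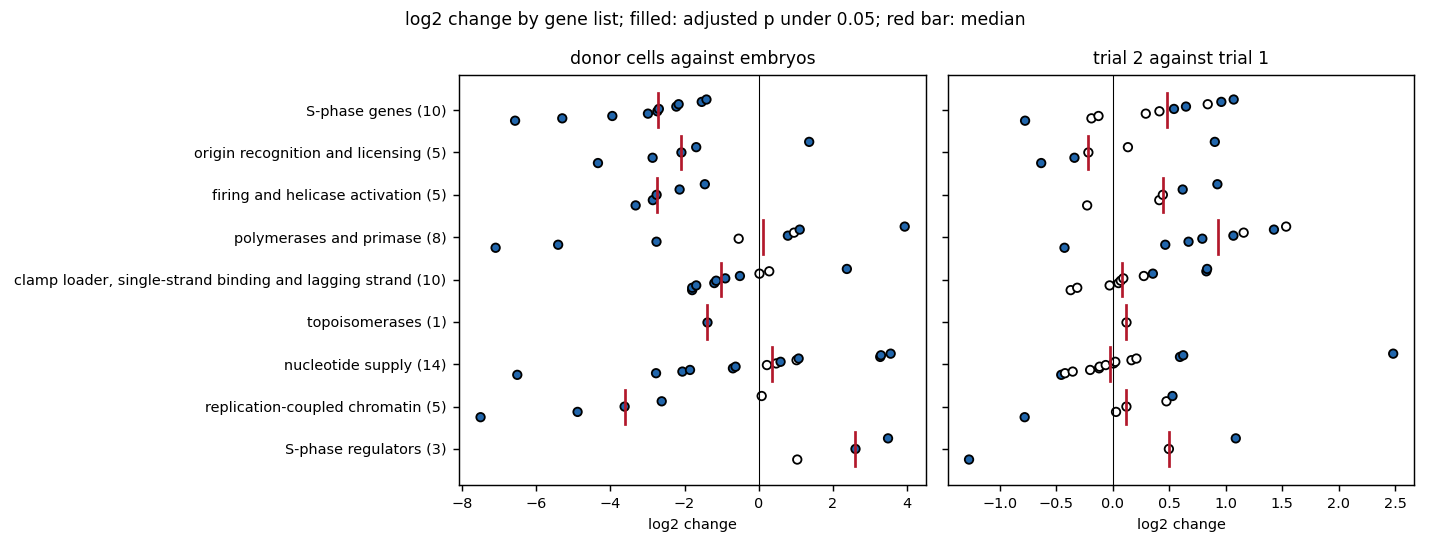
log2 change of the brightest probe set of each gene by list, with 1 point per gene, filled where the adjusted p was under 0.05, and a red bar at the median. Genes within the background on the donor array stand at their fitted values, with which the median of the chromatin list is -3.62, against -2.24 with such genes at their bounds. In donor cells (left) all 10 S-phase genes lie below 0 while polymerases and nucleotide supply spread to both sides, and between trials (right) TYMS stands farthest out at 2.48.

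What the antibody does is addressed by setting anti-DJ1 embryos against IgG embryos, and each trial's IgG array is its control. None of the 14 tested probe sets of the 10 genes passed in limma, as 0% of all tested probe sets did (0 of 14399). At an unadjusted p under 0.05 there were 0 of the 14 and 838 of the 14399 (5.82%), and the median log2 change of the 10 genes was -0.0037. For MCM5 both injected groups had nearly the same signal in each trial, 446 against 441 and 932 against 941, a log2 change of 0.00087 with a 95% confidence interval from -0.42 to 0.43 (limma). TOP2A, at 1206 against 1179 and 1733 against 1745, changed by 0.01 (interval -0.30 to 0.32). PCNA, at 29895 against 29066 and 15876 against 18666, changed by -0.10 (-0.32 to 0.13).

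GMNN changed by 0.08 (-0.16 to 0.33), from 5976 to 6669 in trial 1 and from 5531 to 5550 in trial 2, both counted from IgG to anti-DJ1. RRM1 changed by -0.02 (-0.26 to 0.21), RRM2 by 0.10 (-0.34 to 0.53), MCM3 by -0.0083 (-0.47 to 0.45) and MCM2 by -0.10 (-0.39 to 0.19). The trials went opposite ways for 8 of the 10 genes, among them PCNA (0.04 and -0.23), MCM4 (0.65 and -0.06), RRM2 (0.27 and -0.08) and CDK2 (0.02 and -0.32), and the same way for MCM2 and GMNN. The share of all tested probe sets with opposite signs in the trials was not counted. MCM4 had the largest fitted change of the 10, 0.29, and the widest interval, -0.57 to 1.16. Over the 14 probe sets these intervals reached a median of 1.35-fold to either side, from 1.17-fold for PCNA to 1.82-fold for the dim MCM4 probe set. They are not adjusted for the number of tests, so a change would have to be larger than this to pass the adjusted threshold. Of the 51 further replication genes 0 passed either, with 2 at an unadjusted p under 0.05 and a median of -0.04.

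**Figure D3:**
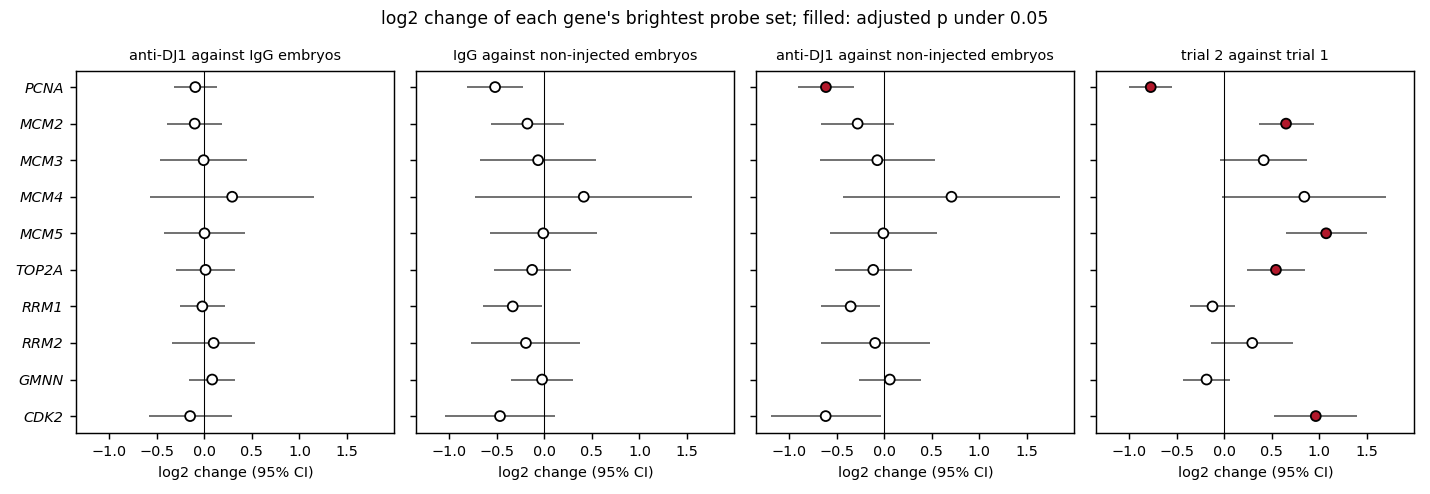
log2 change with its 95% confidence interval for the brightest probe set of each gene in 4 comparisons among embryos, filled where the adjusted p in limma was under 0.05. All intervals of anti-DJ1 against IgG include 0, PCNA alone is filled among the comparisons with non-injected embryos, and 5 genes are filled between trials.

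Both injected groups were also compared with non-injected embryos. These comparisons rest on the same single non-injected array of trial 1, so their values are not independent. PCNA was the 1 gene of the 10 to pass, in anti-DJ1 embryos and not in IgG embryos. Against 43696 without injection, the arrays of trial 1 had 29895 (anti-DJ1) and 29066 (IgG), which are log2 changes of -0.55 and -0.59 within that trial. The fit gave -0.62 ± 0.14 for anti-DJ1 (limma, adjusted p = 0.046) and -0.52 ± 0.14 for IgG (limma, adjusted p = 0.0828). Of the 14 probe sets, 1 was thus called in anti-DJ1 and 0 in IgG embryos. Over all tested probe sets, 1.92% were called in anti-DJ1 embryos (1.26% higher, 0.653% lower) and 1.26% in IgG embryos (0.917% higher, 0.347% lower). The 2 injected groups were not shown to differ in this, as their direct comparison above gives.

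The PCNA difference was lost under 1 of the other scalings and not under the other. With a common 75th percentile it was -0.64 in anti-DJ1 and -0.54 in IgG embryos (limma, adjusted p = 0.0312 and 0.0625), and with quantile normalization 0.0086 and -0.0086 (limma, adjusted p = 0.978 and 0.982). The non-injected array had the brightest upper end of the 6: its 99th percentile was 14727 against 13091 and 12990 in trial 1 and 10094 and 10619 in trial 2, and its highest signal was 76215 against 23282 to 46403 on the other embryo arrays. The 50 probe sets brightest on the embryo arrays, chosen after the PCNA values were seen, had fitted changes below 0 against the non-injected array in 50 of 50 cases for each injected group. Their median log2 change was -0.57 for anti-DJ1 and -0.49 for IgG, beside -0.62 and -0.52 for PCNA, and under quantile normalization it was -0.0022 and -0.01. With 17 to 20 brighter probe sets on each embryo array, PCNA is one of the brightest itself, so this set is not independent of it. PCNA kept its place among probe sets, with 17 brighter ones on the non-injected array and on both injected arrays of trial 1. In trial 2 there were 18 (anti-DJ1) and 20 (IgG). Quantile normalization sets values by rank, so its changes near 0 for PCNA followed from these ranks and are no separate test. The non-injected array also had the highest EF1A ratio of 3′ to 5′ signal, 30.0, against 24.2 and 23.9 on the injected arrays of trial 1. The part of this ratio and of the upper end in the PCNA difference was not tested. The call for PCNA was also lost with no pseudocount (adjusted p in limma 0.0566), no filter, no mean-variance trend, no block for the trial, and when any 1 injected array was left out.

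**Figure D4:**
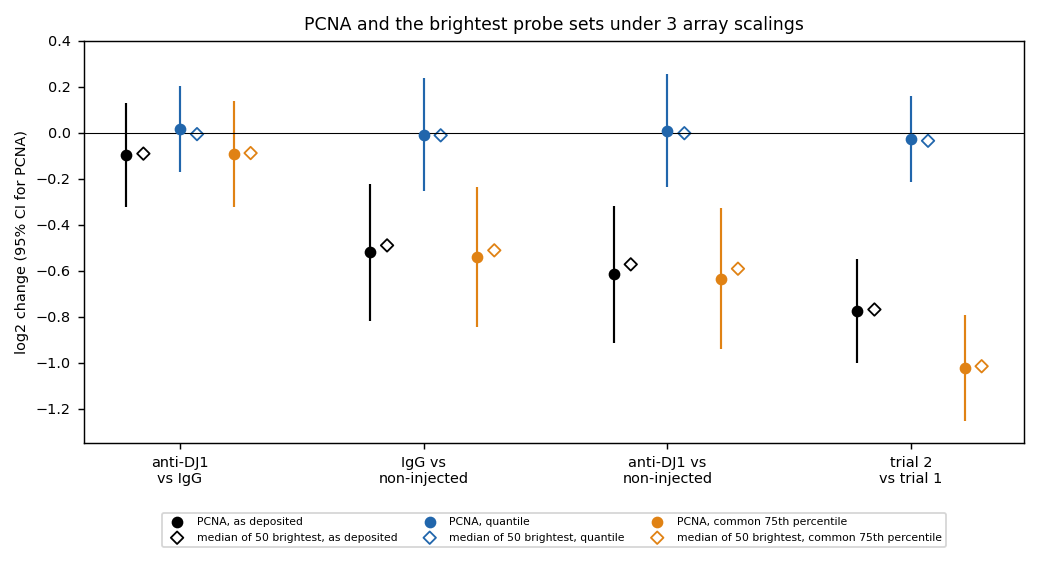
log2 change of PCNA (filled circles, with 95% confidence intervals) and the median of the 50 probe sets brightest on the embryo arrays (open diamonds) in 4 comparisons, for the deposited scaling, quantile normalization and a common 75th percentile. Circle and diamond lie close together throughout, and PCNA is itself among the brightest probe sets. Both lie near 0 under quantile normalization, which sets values by rank.

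RRM1 was also lower than on the non-injected array, at 5223 to 5912 against 7431, but did not pass (log2 change -0.36 in anti-DJ1 and -0.33 in IgG embryos; adjusted p in limma 0.203 and 0.252). CDK2 was at 269 and 266 in trial 1 against 392 without injection, and above it in trial 2, at 471 and 588. Its fitted changes, -0.62 and -0.47, did not pass (limma, adjusted p = 0.237 and 0.401). The other 7 genes changed by between -0.28 and 0.71 and did not pass, with MCM5 at -0.01 in both comparisons. At an unadjusted p under 0.05, 3 of the 14 probe sets stood in the anti-DJ1 and 2 in the IgG comparison, where 18.5% and 17.3% of all tested probe sets did.

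Of the 51 further replication genes, 1 was called in IgG and 2 in anti-DJ1 embryos. Over all tested probe sets the shares were 1.26% and 1.92%, and counts this small do not set the replication genes apart from the array as a whole. Cyclin A2, which drives S phase with CDK2, rose from 73.1 without injection to 325 and 337 in IgG embryos, by 1.91 ± 0.36 (limma, adjusted p = 0.0327). In anti-DJ1 embryos it was 195 and 337, a change of 1.54 ± 0.36 that did not pass (limma, adjusted p = 0.0519), but did under quantile normalization and the common 75th percentile (limma, adjusted p = 0.0435 and 0.0359). Anti-DJ1 and IgG embryos were not shown to differ in CCNA2 (log2 change -0.36; limma, adjusted p = 0.927). PRIM2, a subunit of the primase that starts each new strand, rose in anti-DJ1 embryos by 1.14 ± 0.24 (adjusted p in limma 0.0393). Its signal was 232 without injection, 510 in the first trial and 1114 in the second. IgG embryos had 445 and 906, a change of 0.90 that did not pass (limma, adjusted p = 0.0875). Anti-DJ1 and IgG embryos were not shown to differ in PRIM2 (log2 change 0.25; limma, adjusted p = 0.927). DNMT1 fell by 0.75 in anti-DJ1 embryos (limma, adjusted p = 0.0294), and by 0.11 under quantile normalization (limma, adjusted p = 0.675). Its other 3 probe sets changed by -0.21, 0.11 and -1.13, of which the last passed (limma, adjusted p = 0.0239). In IgG embryos these 3 changed by -0.07, 0.07 and -1.12, and the last passed there too (limma, adjusted p = 0.0293). Between anti-DJ1 and IgG embryos the last changed by -0.01 (limma, adjusted p = 0.995). The brightest DNMT1 probe set, which fell by 0.75 in anti-DJ1 embryos, did not pass in IgG embryos. Anti-DJ1 and IgG embryos were not shown to differ in it, as none of the 51 genes passed between them. Without the trend or without the block the DNMT1 call was lost, as no probe set passed there. Neither CCNA2 nor PRIM2 passed without the filter on low values (limma, adjusted p = 0.0801 and 0.0755), nor without the trend or the block, nor with any 1 injected array left out (limma, adjusted p of at least 0.287 for CCNA2 and 0.289 for PRIM2).

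Between the trials, the 10 genes had a median absolute log2 change of 0.60, where between the anti-DJ1 and IgG groups it was 0.09. Over all tested probe sets the same measure was 0.44 and 0.16. In trial 2, 4 genes of the 10 were higher and PCNA was lower, which is 5 of 14 probe sets. Over all tested probe sets 32.3% were called (18.9% higher, 13.4% lower; 42.2% at an unadjusted p under 0.05), so the share of the S-phase genes is near that of the array as a whole. MCM5 rose by 1.07 ± 0.19 (limma, adjusted p = 0.00157), from 446 and 441 to 932 and 941. CDK2 rose by 0.96 ± 0.20 (limma, adjusted p = 0.00346), from 269 and 266 to 471 and 588. MCM2 rose by 0.65 ± 0.13 (limma, adjusted p = 0.00313), and TOP2A by 0.54 ± 0.14 (limma, adjusted p = 0.0116). For these 4 genes both arrays of trial 2 lay above both arrays of trial 1. They were named because they passed as higher, so that order largely follows from the calls. Its share over all tested probe sets was not counted. The non-injected array of trial 1 lay nearer to trial 1 for MCM2, MCM5 and TOP2A.

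PCNA fell by 0.78 ± 0.10 between trials (limma, adjusted p = 0.00022), and by 0.03 under quantile normalization (limma, adjusted p = 0.85). The latter value followed from the rank of PCNA, which hardly moved. The 50 brightest probe sets, a set not independent of PCNA, had a median of -0.77 between trials, with 50 of 50 below 0. Under quantile normalization their median was -0.04. MCM3 (0.41), MCM4 (0.84), RRM2 (0.29), RRM1 (-0.13) and GMNN (-0.19) did not pass. All tested probe sets had a median of 0.14 here, against -0.0041 under quantile normalization and -0.09 under a common 75th percentile. Of the calls 58.7% were higher, against 47.3% and 34.1%. Across these scalings MCM2, MCM5 and CDK2 passed as higher, TOP2A did not pass under the common 75th percentile (0.30, adjusted p in limma 0.128), and RRM1 (-0.37) and GMNN (-0.43) passed as lower there. The second probe sets of MCM5 (0.03) and CDK2 (0.50) did not pass.

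Several measures moved with the trial. The EF1A ratio stood at 24.2 for anti-DJ1 and 23.9 for IgG in trial 1, against 8.20 and 9.34 in trial 2. The oocyte markers moved too, 6 of 8 higher and 2 lower in trial 2. Their part in the trial difference was not tested. None of the 5 calls held in a fit without the mean-variance trend (adjusted p in limma 0.0823 to 0.129), where 0 probe sets passed on the whole array.

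Among the further replication genes, 16 of 51 were higher and 6 lower in trial 2, where 18.9% and 13.4% of all tested probe sets were. Under the other scalings the counts were 13 and 7, or 10 and 10. The largest was TYMS, which makes thymidylate for DNA synthesis: 209 and 314 in the anti-DJ1 and IgG embryos of trial 1 against 1596 and 1327 in trial 2, by 2.48 ± 0.22 (limma, adjusted p = 2.94e-05), and 2.23 under quantile normalization. It was 212 in non-injected embryos of trial 1. Polymerase genes had 5 higher and 1 lower of 8, with POLD2 (1.43), PRIM2 (1.07), POLD3 (0.79) and POLE4 (0.67) higher and POLE2 lower (-0.43). CDC45 (0.93, its second probe set 1.41), ORC1 (0.90), LIG1 (0.84), RNASEH2B (0.83), DCTD (0.62), GINS4 (0.62) and the inhibitor CDKN1A (1.09) were higher. CDKN1B (-1.27), DNMT1 (-0.78), MCMBP (-0.63), RRM2B (-0.46) and ORC6 (-0.34) were lower. The other probe sets of DNMT1 changed by -0.74, -1.15 and 2.05, and all passed (limma, adjusted p = 0.00118, 3.35e-05 and 1.30e-05). DNMT1 and RRM2B turned to 0.0026 and 0.02 under quantile normalization, and both were bright, at 15982 to 49658 and 11964 to 18887 on the embryo arrays. GINS4 and ORC6 did not pass under quantile normalization either (limma, adjusted p = 0.0824 and 0.292).

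The genes whose log2 signals ran most like each of the 10 over the 6 arrays were found among 5203 other genes, by the Euclidean distance between profiles centred on their means. TOP2A and MCM3 were neighbours of each other, at a distance of 0.15, and MRPL15 lay closer still to TOP2A (0.09). PCNA lay nearest to MELK (0.34), a kinase gene whose signals ran from 13161 to 40458 in embryos and 393 in donor cells. MCM2 lay nearest to PITHD1 (0.14), RRM1 to NFYC (0.12), GMNN to ARID2 (0.17), MCM5 to ATP6V0A4 (0.20), CDK2 to M6PR (0.24) and MCM4 to LARP4 (0.40). Nearest to RRM2, at 0.16, was a gene with no established symbol, followed by WASL (0.19). With 6 arrays, 1 of them of donor cells, these distances describe profiles over few samples.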

How the data were processed

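The deposited table holds MAS5 probe set intensities on a linear scale, per the labels and the submitters' processing notes. No source used here gives the MAS5 version or scaling target, and detection calls were not used. Of 24123 probe sets, 124 controls were left out. The platform annotation gives 10069 of the other 23999 a single symbol, 198 several and 13732 none; all 10 genes matched RefSeq's symbol through their gene ID.

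Values were set to log2(intensity + 4.57), the 10th percentile of all signals, and otherwise kept. Probe sets with a mean in the upper 60% were tested (14399). The test was limma 3.58.1 in R 4.3.3 (lmFit, eBayes with a mean-variance trend) on all 6 arrays with group and trial, two-sided, Benjamini-Hochberg adjusted over all tested probe sets, threshold 0.05. It leaves 1 residual degree of freedom, to which moderation adds 10.7. Donor cells were set against the mean of the 3 embryo groups. The design text names each trial's IgG array as its control, so trial is a block; deviations of same-trial arrays correlated at 0.588 across probe sets. The labels call the replicates different biological samples without saying how they were separated. The 1 residual degree of freedom comes from how the anti-DJ1 and IgG arrays differ in their change between trials. The single arrays of donor cells and non-injected embryos add no spread of their own. P-values therefore do not measure the variation within those groups or between trials, and the number of arrays limits the precision. The fit was tested on simulated data.

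A gene is represented by its brightest probe set. From the other lists, genes past the threshold were named, at most 4 per list, comparison and direction by size; levels of the brightest list genes are not set side by side, since probes differ. The members and lists were chosen with earlier results of these data known. Alternatives were other scalings, pseudocounts, filters, no trend, no block and leaving out each injected array.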

Additional observations from a re-analysis of the deposited data

How the results depend on the processing

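Limits come first from the number of arrays: 1 residual degree of freedom, with single arrays of donor cells and non-injected embryos, so calls rest on the spread borrowed across probe sets. The probe sets past the threshold, with the 10 genes' own in brackets, numbered 182 (0) in IgG and 276 (1) in anti-DJ1 against non-injected embryos. These became 312 (0) and 466 (1) under a common 75th percentile, 447 (1) and 589 (1) with a pseudocount at the 25th percentile, 726 (1) and 878 (1) in the upper 40% of probe sets, 48 (0) and 71 (0) with no filter, and 0 (0) and 0 (0) with no mean-variance trend. The 1 anti-DJ1 call, PCNA, was also lost (0 calls) under quantile normalization, where its log2 change turned to 0.00858 (adjusted p in limma 0.978), and with no pseudocount. That normalization works by rank, so the change near 0 followed from PCNA's nearly unchanged rank. The design pairs arrays by trial: without that replicate block, 0 (0) passed in both comparisons, and PCNA, still lower, had an adjusted p in limma of 0.996 for anti-DJ1. Leaving out each injected array in turn gave 0 in IgG and 0 to 1 in anti-DJ1 embryos, with 0 of the 10 genes' probe sets. Anti-DJ1 against IgG went from 0 to 1 under quantile normalization, 1 under the common 75th percentile, 1 with the higher pseudocount and 43 in the upper 40%, with 0 of the 10 genes' probe sets each time. The trial comparison went from 4651 (5) to 0 (0) with no mean-variance trend. Donor cells against embryos stayed within 1.5 times of 10501 (11) in all alternatives run, at 7543 to 12714 (10 to 14). Changes that passed in neither fit turned sign for 7 and 9 of 14 probe sets without the block (IgG and anti-DJ1 against non-injected) and for up to 8 and 10 with an array left out. For anti-DJ1 against IgG, 4 to 7 turned with an array left out and 1 under quantile normalization. Such fits leave the trials unbalanced, and the cause of each change was not tested.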
